A study of Mus musculus with 16 samples.

Results

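Loop pixels that were constant in neural progenitor cells (NPCs) and in embryonic stem (ES) cells of both media made up 1537 of the 5762 pixels that the authors had classified at 7 mouse loci. Of the 5762, 1820 were in the authors' background class. These 1820 are not members and count among the other classified pixels used for comparison below. A pixel is a pair of 4 kb bins of the genome (build mm9). The members were chosen by measured values: the deposited interaction score had to be at least 26 in each of the 6 untreated libraries, so the scores of these libraries are given below as a description, without a test. The deposited score is −10 × log2 of the deposited p-value, so that a score of 26 corresponds to 0.165 on the p-value scale, a lenient limit in any single library. The authors' own class for loops of all 3 states held 1424 pixels, all of which met the rule. The other 113 members had been placed by the authors in classes of fewer states, 52 of them in the class of 2i and NPC and 31 in that of both ES states, with 26 in that of serum ES cells and NPC, 3 in the NPC class and 1 in the ES class.

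The contacts were counted by 5C, which amplifies ligation products between chosen HindIII fragments with forward and reverse primers. The NPCs were isolated from whole brains of newborn mice (postnatal day 1; 129SvJae x C57BL/6 carrying a Sox2-eGFP allele), passaged as neurospheres, plated at 60000 cells per cm2 and fixed a day later. The ES cells were of the male V6.5 line (129SvJae x C57BL/6), grown with LIF in serum or in 2i medium, which contains the kinase inhibitors CHIR99021 and PD0325901. For each untreated group 2 libraries were made. NPCs of the same mice were plated at 20000 cells per cm2 and treated for 78 hours with 20 nM siRNA, labelled as against YY1 or as control, with 2 libraries each at the Sox2 and Klf4 loci only. The level of YY1 was not analysed here. CTCF was mapped by ChIP-seq with 1 library for each untreated group. The loci carry the names of genes of pluripotent cells (Oct4, which is Pou5f1, Nanog, Sox2 and Klf4), of neural progenitors (Nestin) and of the oligodendrocyte lineage (Olig1-Olig2), with a gene desert beside them. Genes at the anchors were not placed, since the gene table used is of another build (GRCm38.p6). By gene order in that RefSeq table, Pou5f1 lies between H2-Q10 and Tcf19, Nanog between Dppa3 and Slc2a3, Sox2 between Dnajc19 and Atp11b, Klf4 between Rad23b and Actl7b, and Nes between Crabp2 and Bcan. NPCs and ES cells differ in origin as well as in state, and the 2 cannot be told apart here.

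Chromatin loops bring distant fragments of a chromosome together. Many are held by cohesin, a ring-shaped complex that extrudes DNA until it meets CTCF, a zinc-finger protein bound at both ends, and such loops often persist across cell types. Other loops join enhancers and promoters and tend to change with cell state, and YY1, another zinc-finger protein, has been linked to these. In this study the loci were compared between pluripotent cells and neural progenitors to learn which loops persist and which are rewired.

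Total counts were 14887963 and 14698138 in NPCs, 26533530 and 25791222 in ES cells in serum, and 11784821 and 14201950 in ES cells in 2i. The siRNA libraries, which cover fewer loci, had 4419309 and 12993781 counts with YY1 siRNA and 5792078 and 6251316 with control siRNA. The growth text of the control siRNA samples names an siRNA against YY1, and their titles were followed. The labels do not say whether replicate libraries stem from separate cultures, and p-values then cover only the spread among libraries, which may be technical. Per the labels, contacts were binned in 16 kb windows moved by 4 kb. Neighbouring pixels therefore share reads, and members that touch were joined into clusters.

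The 1537 members formed 148 clusters with a median of 5 pixels. Of these clusters, 43 had at least 10 pixels and 16 were single pixels. Oct4 held 920 members in 65 clusters, Nestin 281 in 28, Olig1-Olig2 158 in 25, Nanog 87 in 10, Sox2 52 in 11, Klf4 30 in 7 and the gene desert 9 in 2. Oct4 thus gave 59.9% of the members but 33.7% of the 191831 bin pairs with a score in all 6 libraries. Members were 1.42% of scored pairs at Oct4, 1.06% at Nestin, 0.951% in the gene desert, 0.705% at Nanog, 0.423% at Olig1-Olig2, 0.176% at Sox2 and 0.146% at Klf4. Of the 1699 bins with a scored pair, 713 (42%) took part in at least 1 member.

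**Figure D1:**
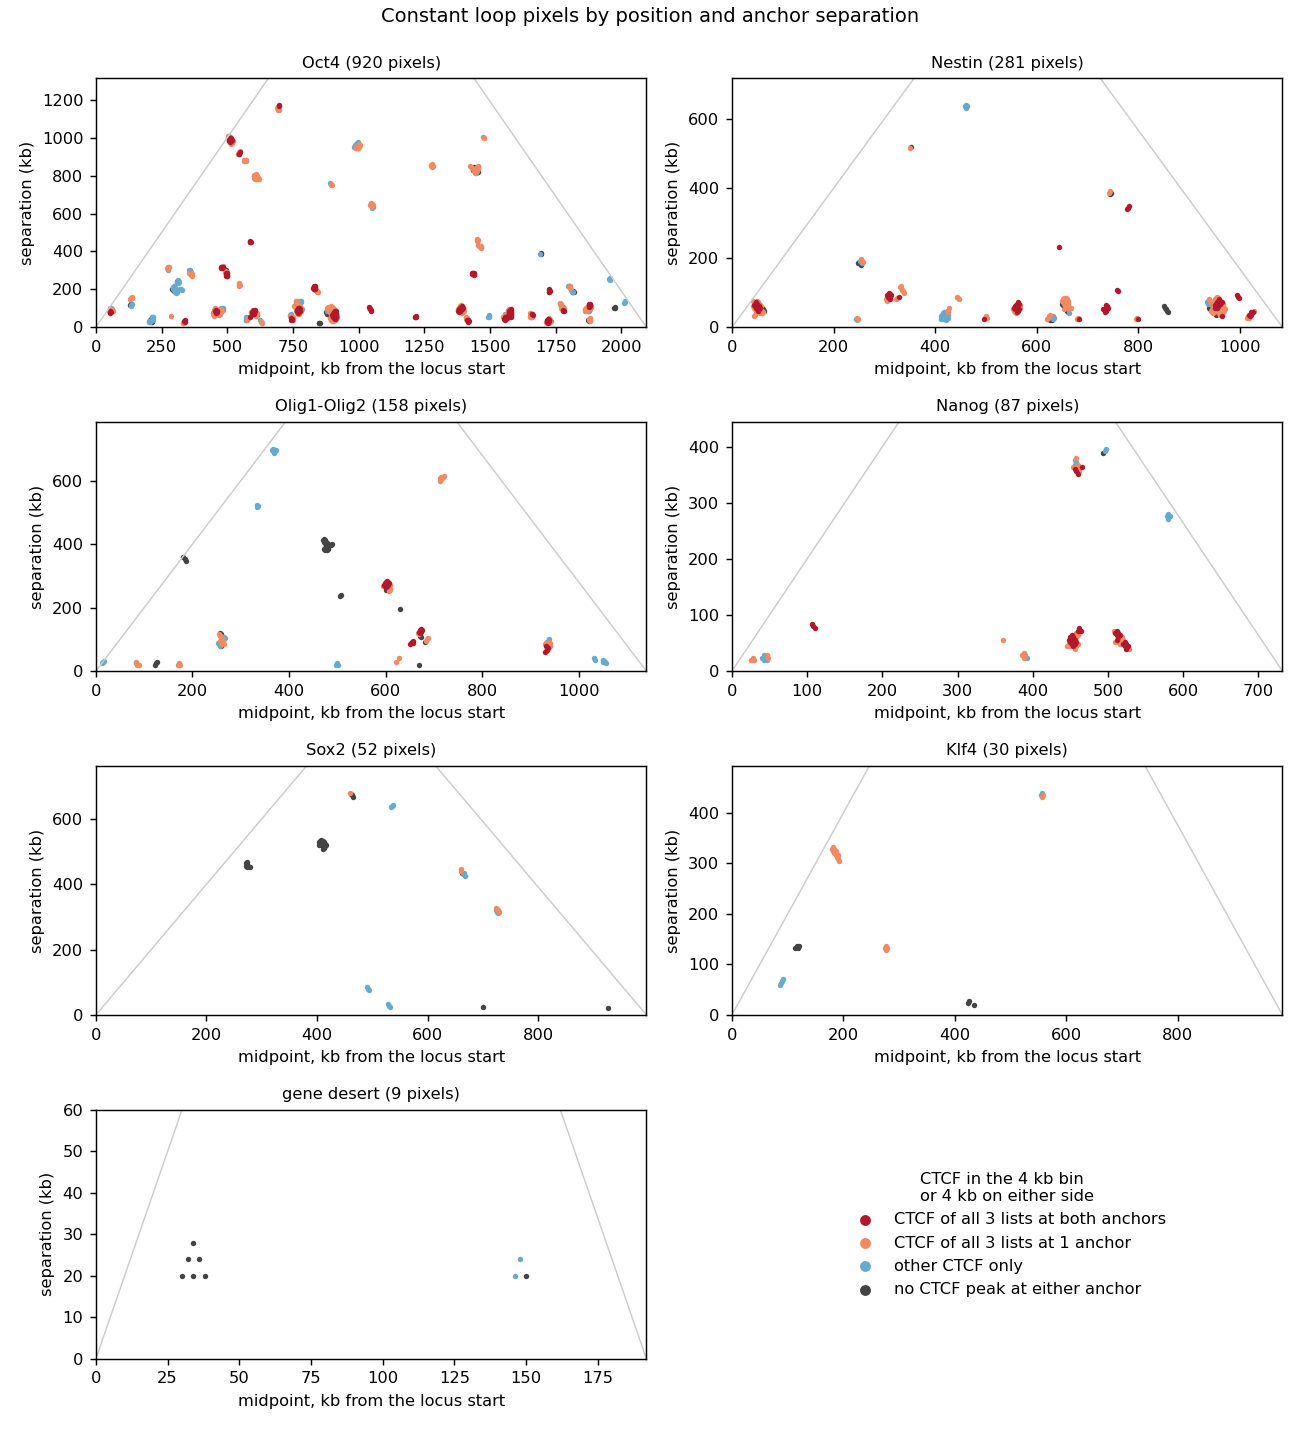
Each point is a constant pixel, placed by the midpoint of its bins (x, kb from the start of the locus) and their separation (y, kb; scales differ between panels), with the colour giving CTCF at its anchors. Grey lines mark the limit of the locus; Oct4 has many clusters at short separations and others at 800 kb or more, while most Sox2 pixels lie above 400 kb.

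Over all loci, members joined nearer bins than other pairs did, but not at Sox2 and Klf4. The median separation of members was 88 kb, against 176 kb for the 4225 classified pixels that were not members and 300 kb for all scored pairs. Separations of 50 to 100 kb held 37.4% of the members and 9.33% of all scored pairs, and 3.21% of the pairs at this range were members. Between 400 and 800 kb only 0.207% of pairs were members. Beyond 800 kb the share was 1.18%, and all 132 members there lay in the Oct4 locus. By locus, the median separation of members was 96 kb at Oct4, against 412 kb for all scored pairs of that locus, 56 kb at Nestin, against 256 kb, and 110 kb at Olig1-Olig2, against 328 kb. It was 56 kb at Nanog, against 196 kb, and 20 kb in the gene desert, against 68 kb. At Sox2 it was 462 kb, against 304 kb, and at Klf4 220 kb, against 208 kb. The members of these 2 loci were few and lay farther apart than the median pair of their locus.

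**Figure D2:**
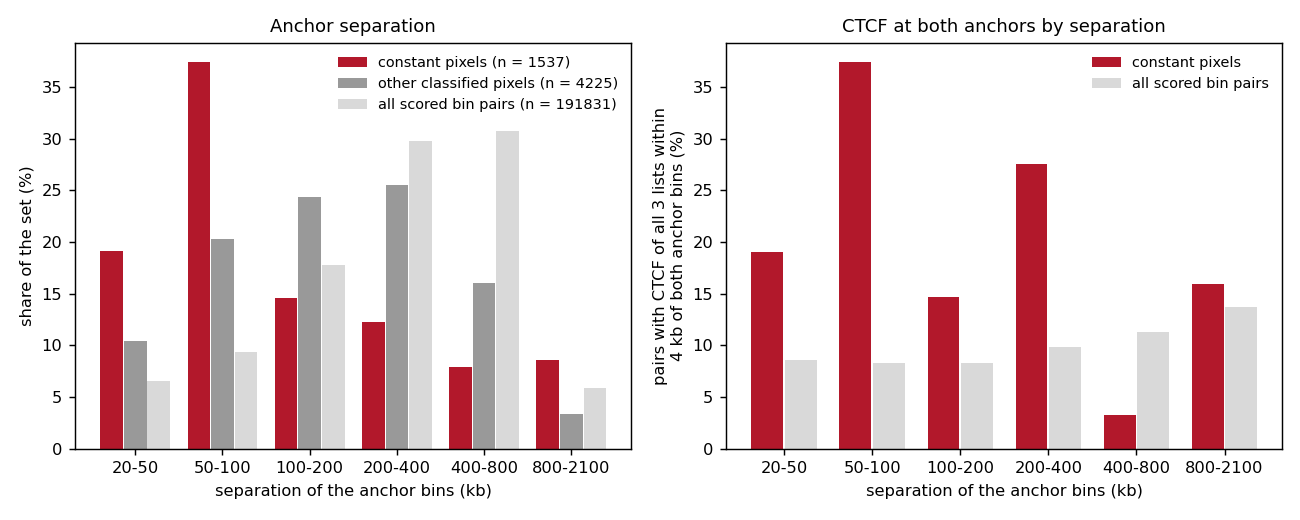
Left, share of each set (y, %) by separation of its bins (x, kb); right, share of pairs with CTCF of all 3 lists within 4 kb of both bins. Constant pixels are set left of the pairs they are compared with; 37.4% of them lie at 50 to 100 kb, and 37.4% of those have CTCF at both anchors, against 8.31% of all pairs at that range.

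Scores of the members were alike in level in the 3 states. The median score was 47.3 and 47.1 in the NPC libraries, 46.6 and 46.1 in serum and 46.2 and 52.3 in 2i, against about 10 in every library over all scored pairs (9.91 to 10.3). Within a member, the distance between its highest and its lowest library was 23.3 in the median, with quartiles of 17.2 and 32.7 and a maximum of 138, so a constant pixel was one that stayed above 26 and not one with equal scores. Just inside the limit was a Nestin pixel of 76 kb, with scores of 33.7 and 26.01 in NPCs, 27.8 and 45.6 in serum and 42.4 and 41.0 in 2i. Just outside was a Nestin pixel of 60 kb, with 25.9 and 34.3 in NPCs, 61.6 and 61.6 in serum and 53.4 and 55.8 in 2i. In all, 99 members had a lowest score within 1 of the limit, and 17 classified pixels fell short of it by less than 1.

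Both NPC libraries scored above both 2i libraries in 337 members (21.9%, against 27.9% of all scored pairs), and below them in 566 (36.8%, against 28.5%). Set against serum, NPCs were higher in 531 members (34.5%, against 30.4% of all pairs) and lower in 482 (31.4%, against 31.6%). Serum was above 2i in 348 members (22.6%, against 32.6%) and below it in 558 (36.3%, against 31%). The rule used these scores, so nothing is read from these shares. At Sox2 the median member score was 69.3 and 63.1 in NPCs and 57.1 and 64.0 in serum, against 45.3 and 47.2 in 2i. Both NPC libraries were above both 2i libraries in 34 of the 52 Sox2 members and below them in 5, where 31.4% and 30.5% of all Sox2 pairs were. At Nanog 6 of 87 members were higher in NPCs than in 2i and 35 lower, where 26.1% and 29.8% of all Nanog pairs were. These counts, too, rest on the scores that chose the members.

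The largest constant cluster had 124 pixels and lay in the Oct4 locus, where separations ran from 32 to 112 kb. Its peak, the pixel with the highest median score, joined chr17:35306392-35310391 and chr17:35362392-35366391. The score there was 71.7 and 77.0 in NPCs, 50.9 and 49.8 in serum and 74.0 and 92.7 in 2i, so serum was the lowest state. The 16 kb windows around this peak held 9419 and 7901 reads in NPCs, 13487 and 12712 in serum and 10337 and 8515 in 2i, spread over 5 primer pairs. CTCF sites present in all 3 peak lists lay within 4 kb of both bins.

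The bin that took part in the most members of the series, the hub of the Oct4 locus, was the next bin to the right, chr17:35366392-35370391. It joined 24 member pixels, all to bins at lower coordinates 44 to 212 kb away, in 2 clusters. It held a CTCF site of all 3 lists at chr17:35368928-35369371, with the authors' fold enrichment of 16.3 in NPCs, 47.9 in serum and 24.2 in 2i. The adjoining bin carried another site of all 3 lists at chr17:35373251-35373683, with fold enrichments of 33.1, 31.0 and 37.3 in NPCs, serum and 2i, and took part in 18 members.

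The next 2 Oct4 clusters in size were 108 and 76 kb long. The 69-pixel cluster peaked between chr17:35154392-35158391 and chr17:35262392-35266391, with 56.7 and 48.1 in NPCs, 71.8 and 71.0 in serum and 75.3 and 86.9 in 2i, so NPCs were below both ES states. CTCF of all 3 lists lay at its left bin, and CTCF of the serum and 2i lists only lay near its right bin. The 64-pixel cluster peaked between chr17:34850392-34854391 and chr17:34926392-34930391, with 145 and 150 in NPCs, 151 and 136 in serum and 101 and 149 in 2i. These groups overlapped, and CTCF of all 3 lists lay within 4 kb of both bins.

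The longest constant clusters were also in the Oct4 locus. The longest joined chr17:34542392-34546391 and chr17:35698392-35702391, 1156 kb apart, in 8 pixels, with 171 and 182 in NPCs, 145 and 171 in serum and 184 and 216 in 2i. No primer pair had both fragment midpoints in the 16 kb windows around this peak, although the overlapping pair of 16 kb windows used for the count tests held 452 and 778 counts in NPCs, 384 and 534 in serum and 308 and 378 in 2i. They were 6.16 to 25.8 times the locus trend of counts with distance. A 3-pixel cluster joined chr17:35402392-35406391 and chr17:36406392-36410391 over 1004 kb, with 103 and 71.6 in NPCs, 62.1 and 56.4 in serum and 50.8 and 79.2 in 2i. A 30-pixel cluster joined chr17:34446392-34450391 and chr17:35438392-35442391 over 992 kb, with 49.4 and 61.6 in NPCs, 47.0 and 53.2 in serum and 56.3 and 58.9 in 2i. Both bins of this last peak held a CTCF site of all 3 lists. The left site, chr17:34450334-34450749, had fold enrichments of 27.7 in NPCs, 25.8 in serum and 17.6 in 2i. The right site, chr17:35438500-35439352, had 16.3, 47.0 and 34.7 in NPCs, serum and 2i.

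The 2 clusters with the highest scores of all, singled out after their values were seen, were Oct4 clusters of 956 and 820 kb. The first peaked between chr17:34954392-34958391 and chr17:35910392-35914391 and scored 314 and 322 in NPCs, 295 and 314 in serum and 241 and 353 in 2i. The second peaked between chr17:35462392-35466391 and chr17:36282392-36286391 and scored 248 and 270 in NPCs, 309 and 303 in serum and 304 and 373 in 2i. A single primer pair gave 96.6% of the reads at the first peak and 100% at the second, to 3 digits. The second peak held 115850 and 79081 reads in NPCs, 146934 and 76205 in serum and 90431 and 74257 in 2i. That of the 30-pixel cluster of 992 kb held between 140 and 295 in a library. The part of single primer pairs in these scores was not tested.

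**Figure D3:**
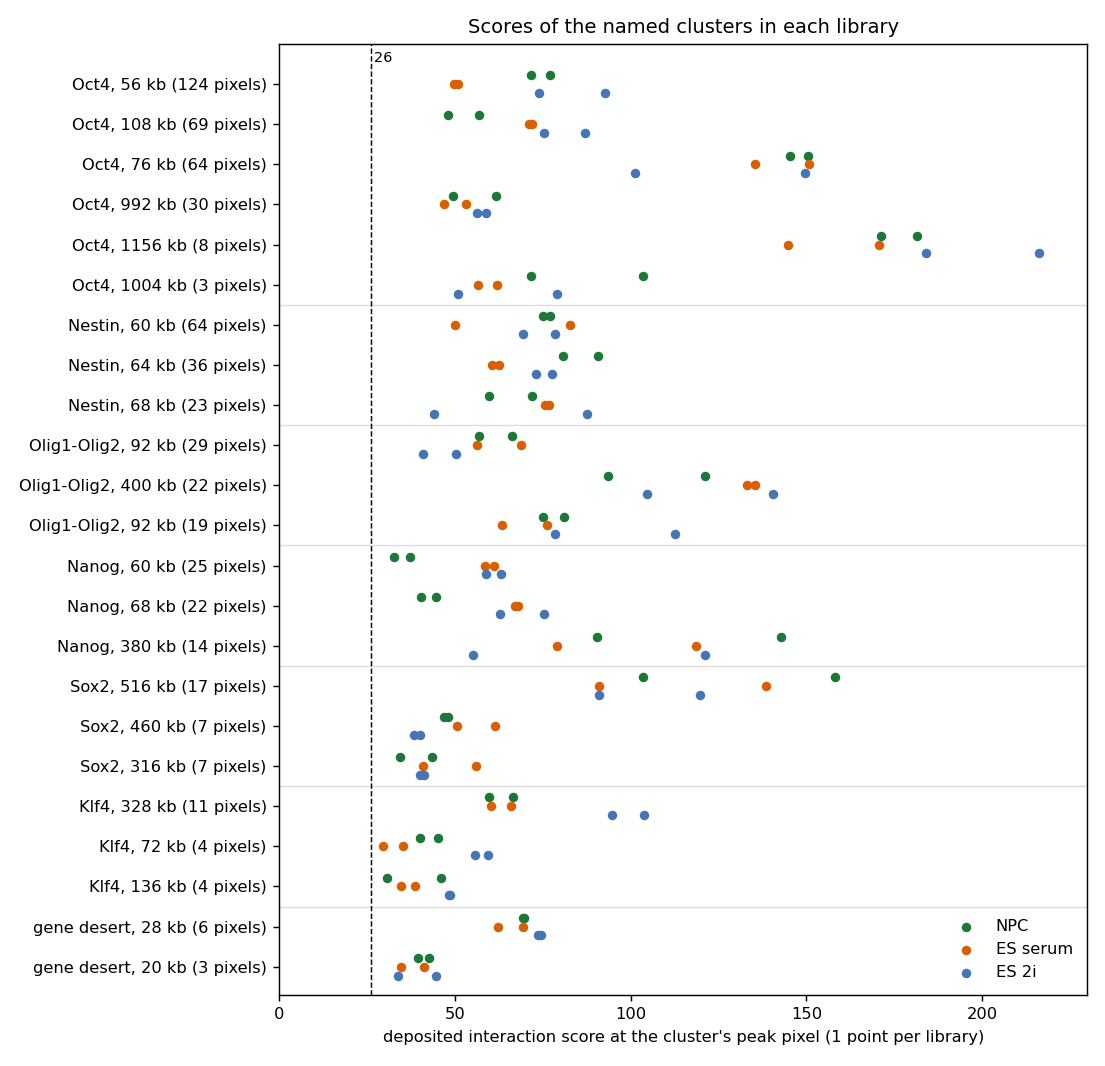
Scores (x) at the peak pixel of each named cluster (rows, with its separation and size), 1 point per library and the limit of 26 as a dashed line. All points lie above the limit. NPC scores lie below those of both ES states at the 60 and 68 kb Nanog clusters and the 108 kb Oct4 cluster. Scores in 2i lie above the others at the 328, 136 and 72 kb Klf4, 108 and 1156 kb Oct4 and 28 kb gene desert clusters.

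At Nestin the largest cluster had 64 pixels and joined chr3:88213088-88217087 and chr3:88273088-88277087, 60 kb apart. It scored 75.0 and 77.1 in NPCs, 49.9 and 82.7 in serum and 69.3 and 78.5 in 2i, so the groups overlapped. The second, of 36 pixels, joined chr3:87305088-87309087 and chr3:87369088-87373087 and scored 80.8 and 90.6 in NPCs, 62.7 and 60.5 in serum and 73.1 and 77.6 in 2i. Its NPC scores were above those of both ES states. Both of these clusters had CTCF of all 3 lists within 4 kb of both bins. Another cluster of 23 pixels, between chr3:87901088-87905087 and chr3:87969088-87973087, had no CTCF peak of any list within 4 kb of either bin, and scored 59.8 and 71.8 in NPCs, 76.8 and 75.6 in serum and 44.0 and 87.7 in 2i. The hub bin of the locus, chr3:88265088-88269087, joined 10 members of the largest cluster, shared that number with another bin and held no CTCF peak.

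At Olig1-Olig2 the 29-pixel cluster joined chr16:90826613-90830612 and chr16:90918613-90922612, 92 kb apart. It scored 56.7 and 66.2 in NPCs, 68.9 and 56.2 in serum and 50.4 and 41.0 in 2i, so 2i was the lowest state. A 22-pixel cluster joined chr16:90894613-90898612 and chr16:91294613-91298612 over 400 kb, with 121 and 93.6 in NPCs, 135 and 133 in serum and 105 and 141 in 2i. None of its 22 pixels had a CTCF peak in either bin, and none lay within 4 kb of the bins of its peak. A 19-pixel cluster joined chr16:91502613-91506612 and chr16:91594613-91598612, with 75.1 and 81.1 in NPCs, 76.2 and 63.3 in serum and 78.4 and 113 in 2i. Like the longest Oct4 cluster, it had no primer pair in the 16 kb windows of its peak. The hub of this locus, chr16:91222613-91226612, joined 10 members, all to bins at higher coordinates, in 4 clusters, and held a CTCF site of all 3 lists (chr16:91224983-91225343, fold 27.6 in NPCs, 13.7 in serum and 12.2 in 2i).

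At Nanog a pair of adjoining clusters shared an anchor. The 25-pixel cluster joined chr6:122609360-122613359 and chr6:122669360-122673359, 60 kb apart, and the 22-pixel cluster joined the second of these bins to chr6:122737360-122741359, 68 kb further on. The first scored 32.5 and 37.1 in NPCs, 61.1 and 58.5 in serum and 58.9 and 63.2 in 2i. The second scored 40.3 and 44.5 in NPCs, 68.0 and 67.1 in serum and 62.9 and 75.3 in 2i. NPCs were below both ES states at both peaks without overlap, and the authors placed the peak of the first cluster in the class of both ES states. CTCF sites of all 3 lists lay within 4 kb of all 3 bins, and that in the shared bin (chr6:122670020-122670451) had fold enrichments of 15.2 in NPCs, 35.3 in serum and 22.1 in 2i. A 14-pixel cluster joined chr6:122457360-122461359 and chr6:122837360-122841359 over 380 kb, with 143 and 90.5 in NPCs, 79.0 and 119 in serum and 55.0 and 121 in 2i. A single primer pair gave all reads at the peak of this cluster. The hub bin, chr6:122613360-122617359, joined 9 members, as did 3 other bins, and held no CTCF peak.

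At Sox2 the largest cluster, of 17 pixels, joined chr3:34264880-34268879 and chr3:34780880-34784879, 516 kb apart. It scored 104 and 158 in NPCs, 90.9 and 138 in serum and 91.0 and 120 in 2i. None of its pixels had a CTCF peak in either bin, and none lay within 4 kb of its peak bins. A single primer pair gave 94.7% of the reads at the peak pixel. A 7-pixel cluster joined chr3:34152880-34156879 and chr3:34612880-34616879 over 460 kb, with 46.8 and 48.0 in NPCs, 61.5 and 50.6 in serum and 39.9 and 38.4 in 2i. Another 7-pixel cluster joined chr3:34680880-34684879 and chr3:34996880-35000879 over 316 kb, with 34.3 and 43.4 in NPCs, 40.9 and 56.1 in serum and 40.0 and 41.1 in 2i, and had CTCF of all 3 lists near its right bin only. The hub bin, chr3:34776880-34780879, joined 5 members, as did 3 other bins, and held no CTCF peak.

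At Klf4 the largest cluster, of 11 pixels, joined chr4:54919979-54923978 and chr4:55247979-55251978, 328 kb apart. It scored 66.5 and 59.5 in NPCs, 66.1 and 60.2 in serum and 94.8 and 104 in 2i, so 2i was above the other states. A single primer pair gave all reads at its peak, between 141 and 364 in a library. A 4-pixel cluster of 72 kb between chr4:54955979-54959978 and chr4:55027979-55031978 scored 45.1 and 40.0 in NPCs, 29.5 and 35.1 in serum and 59.3 and 55.7 in 2i. A 4-pixel cluster of 136 kb between chr4:55107979-55111978 and chr4:55243979-55247978 scored 46.0 and 30.6 in NPCs, 34.6 and 38.5 in serum and 48.2 and 48.6 in 2i. Its right bin was the hub of the locus, which joined 9 of the 30 members, all to bins at lower coordinates, and held a CTCF site of all 3 lists (chr4:55244427-55244894, fold 11.8 in NPCs, 20.7 in serum and 20.7 in 2i).

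In the gene desert a 6-pixel cluster of 28 kb joined chr5:133328809-133332808 and chr5:133356809-133360808 and scored 69.4 and 69.8 in NPCs, 62.2 and 69.4 in serum and 74.4 and 73.5 in 2i. The other, of 3 pixels and 20 kb, joined chr5:133448809-133452808 and chr5:133468809-133472808 and scored 42.7 and 39.6 in NPCs, 34.6 and 41.1 in serum and 33.9 and 44.5 in 2i. The hub bin, chr5:133328809-133332808, was tied with another at 3 members. No bin of the 9 members held a CTCF peak.

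CTCF content was the main property that the rule had not used. The deposited peak lists, 1 per untreated group, held 28860 peaks in NPCs, 50185 in serum and 56138 in 2i. A site of all 3 lists lay in at least 1 bin of 583 members (37.9%), against 22.4% of the other classified pixels and 21.3% of all scored pairs. Such a site lay in both bins of 78 members (5.07%), against 1.92% and 1.75%. The background class, a part of the other classified pixels, gave 18.9% and 1.48% for these 2 shares. No peak of any list lay in either bin of 640 members (41.6%), against 55.3% of the other classified pixels and 58.9% of all pairs. Since each score draws on 16 kb, the bin was also widened by 4 kb on either side. Sites of all 3 lists then lay at both ends of 381 members (24.8%), against 9.51% of other classified pixels and 10% of all pairs, and no peak lay at either end of 173 members (11.3%), against 23.5% and 27.9%. With 1 library per list and pixels that share bins, these shares have no test. Nor are they matched for locus, as Oct4 held 59.9% of members but 33.7% of scored pairs. At Oct4 alone, a site of all 3 lists lay in at least 1 bin of 42.1% of members, against 33.7% of its pairs. No peak lay in either bin of 34.8% of Oct4 members, against 42.4% of its pairs.

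The CTCF content differed between loci. With the widened bins, sites of all 3 lists lay at both ends of 40.2% of the Nanog members, against 9.07% of all Nanog pairs. At Nestin the share was 28.5%, against 15.6%, at Oct4 25.8%, against 19%, and at Olig1-Olig2 18.4%, against 3.92%. No Sox2, Klf4 or gene desert member had such sites at both ends, where all pairs gave 0.237% at Sox2, 0.65% at Klf4 and 0% in the gene desert. At Sox2 43 of 52 members (82.7%) had no CTCF peak in either bin, close to the 81.6% of all Sox2 pairs. At Klf4 the share was 53.3%, against 76.3%, and 9 of the 30 members, which are those of the hub bin, had a site of all 3 lists in 1 bin.

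The content also varied with separation. At 50 to 100 kb, 37.4% of members had sites of all 3 lists at both widened ends, against 8.31% of all pairs, and at 200 to 400 kb 27.5%, against 9.81%. At 400 to 800 kb the order was the opposite, with 3.28% of members and 11.3% of all pairs. In 4 equal sets of members, ordered from low to high by their lowest score, the share was 21.6%, 24%, 29.7% and 23.9%. When each cluster counted once, at its peak, 8 of 148 (5.41%) had sites of all 3 lists in both bins, against 1.75% of all pairs. With the widened bins 25 did (16.9%, against 10%). Of the clusters, 75 (50.7%) had no CTCF peak in either bin of the peak, against 58.9% of all pairs. In the widened bins 26 had none (17.6%, against 27.9%). All pairs are pooled here and not matched for locus. Of the clusters, 65 lay at Oct4, where 19% of all pairs had such sites at both widened ends and 42.4% had no peak in either bin.

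Seen from the bins, 116 of the 176 bins with a CTCF site of all 3 lists (65.9%) took part in a member, as did 101 of the 202 bins with other CTCF peaks (50%) and 496 of the 1321 bins without one (37.5%). At Oct4 the shares were 79.5%, 75.7% and 67.9%, and at Sox2 20%, 26.3% and 18.3%. Sites of all 3 lists in a member bin had a median fold of 18.7 in NPCs, 28.6 in serum and 23.7 in 2i, and those in other bins 17.7 in NPCs, 28.6 in serum and 25.6 in 2i. Of the regions of all 3 lists in the loci, 61.6% lay in a member bin, against 51% of those of the serum and 2i lists only. The share was 55.2% for regions of the serum list alone and 44.8% for those of the 2i list alone. Regions of other lists were few, and these shares are pooled over loci.

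Raw counts were then summed over pairs of 16 kb windows and set against the trend of counts with distance in the same library and locus. Of the 355 window pairs with a member, 326 held a primer pair and 322 passed the filter on low counts. Their median was 1.87 and 1.86 times the trend in NPCs, 1.70 and 1.81 times in serum and 1.83 and 1.71 times in 2i, against 1.14 to 1.17 over all 15601 window pairs. In all 6 libraries, 188 of the 322 (58.4%) lay above the trend, against 38% of all pairs, and 60 (18.6%) lay below it, against 26.6%. Of these 188, 40 were over 4 times the trend in every library (12.4% of the 322, against 1.72% of all pairs). Of the 60, 10 were under 0.25 times the trend in every library (3.11% of the 322, against 2.48% of all pairs). The members were chosen by high scores in these same libraries, so nothing is read from these shares. At Oct4 the medians were 2.39 and 2.29 in NPCs, 2.09 and 2.12 in serum and 2.08 and 2.02 in 2i. At Sox2, the 16 pairs had medians of 1.26 and 1.40 in NPCs, 0.770 and 0.824 in serum and 1.53 and 1.25 in 2i, so the median was under the trend in serum, where 7 of the 16 pairs were above it in each library. Counts here are not corrected for primer efficiency.

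**Figure D4:**
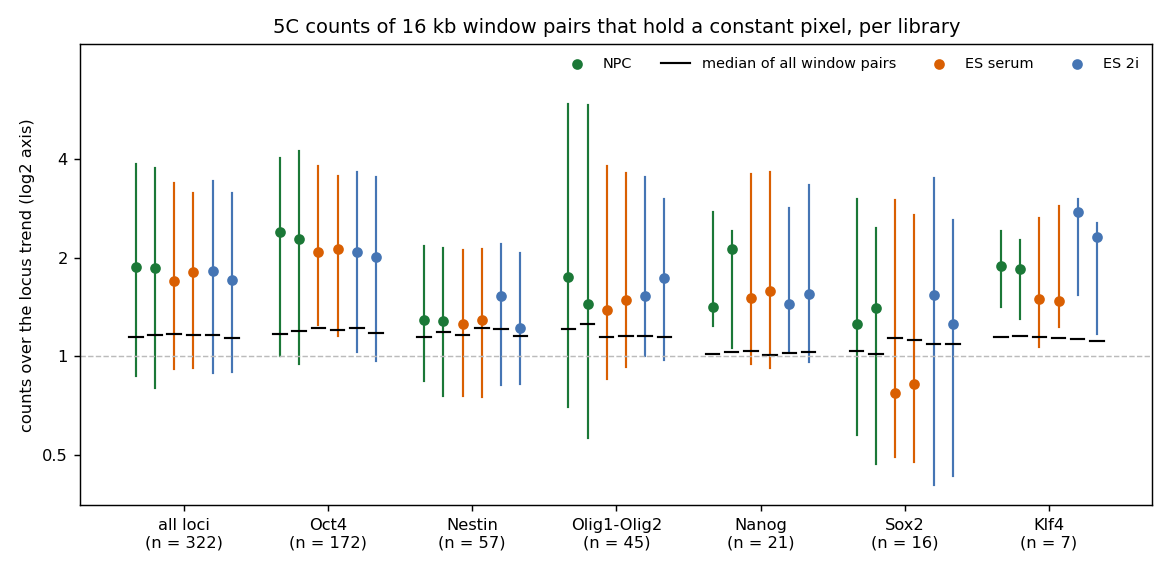
Counts of 16 kb window pairs with a constant pixel, divided by the trend with distance (y, log2 axis), for each library; points are medians, coloured lines the quartiles and black bars the median of all window pairs of the locus (gene desert not drawn). Medians are near 2 at Oct4 and lie between 0.770 and 1.53 at Sox2.

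Counts of the window pairs with a member were also tested between the states. A window pair spans several bin pairs and can also hold pixels that are not members. In NPCs against 2i, edgeR's quasi-likelihood test called 81 of the 322 pairs at an adjusted p below 0.05 (25.2%), against 17.1% of all pairs. Of these, 50 were higher in NPCs, where 8.56% of all pairs were, and 31 lower, where 8.51% were. In NPCs against serum it called 133 (41.3%, against 29.3%), 78 of them higher and 55 lower, beside 13.9% and 15.4% of all pairs. In serum against 2i it called 99 (30.7%, against 21.9%), 50 higher and 49 lower, beside 11.7% and 10.2% of all pairs. With TMM factors alone and no distance trend, serum against 2i gave 32 higher and 64 lower, and with DESeq2 39 and 65. All window pairs turned the same way, with 1684 higher and 2013 lower under TMM alone and 1788 and 2092 with DESeq2, beside 1827 and 1589 with the trend. With windows of 32 kb, NPCs against serum gave 54 higher and 58 lower among 229 pairs with members. These were 48.9% of the 229, against 40.5% of all 4395 pairs, with 823 higher and 955 lower. NPCs against 2i gave 42 and 43 (37.1%, against 29.1%), beside 614 and 667 over all pairs. The median log2 fold change of members in NPCs against serum was then -0.077, against -0.038 over all pairs. With windows of 16 kb it was 0.087, against -0.042. In none of the 3 comparisons did 136 of the 322 pairs pass (42.2%, against 57.8% of all pairs). The rule used these libraries, so nothing is read from the difference in shares.

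Among the peaks named above, the Nanog window pair of the 60 kb cluster held 1359 and 1641 counts in NPCs, 6723 and 5863 in serum and 4811 and 4966 in 2i. It was 4.67 and 4.50 times the trend in NPCs, 5.84 and 4.84 times in serum and 8.56 and 6.77 times in 2i. The window pair of the 516 kb Sox2 cluster held 1228 and 2288 counts in NPCs, 2286 and 2765 in serum and 602 and 902 in 2i. These were 9.28 and 14.6 times the trend in NPCs, 5.96 and 6.70 in serum and 4.99 and 4.87 in 2i. In the siRNA libraries of NPCs, made with an in situ protocol and fitted apart, this pair was near the trend. It was at 1.25 and 1.01 times with YY1 siRNA and 1.01 and 0.911 times with control siRNA. The cause of this difference was not tested. The window pair of the 56 kb Oct4 cluster, at 9.94 to 11.2 times the trend in NPCs, was at 7.14 to 7.16 times in serum and 7.85 to 10.4 times in 2i. That of the 60 kb Nestin cluster lay near the trend, between 0.685 and 1.05 times in all 6 libraries. It held only 1 primer pair, with 760 to 1890 counts in a library. The 16 kb windows around the peak itself held 4 primer pairs with 6262 to 8594 reads. The window pairs of the gene desert clusters lay below the trend in all 6. That of the 28 kb cluster was at 0.257 to 0.551 times the trend and that of the 20 kb cluster at 0.0291 to 0.0659 times. The windows of the count tests lie on a fixed grid and can miss reads of a peak. The pair of the 20 kb cluster held 20 to 82 counts in a library, against 2173 to 3949 reads around its peak. For the 28 kb cluster it was 176 to 641, against 550 to 970. These values are thus of the grid pair and do not measure the peak.

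The reads behind a member were few or uneven in places. Over the 16 kb windows of a pixel, 62 members had no primer pair and 215 had 1, and the median was 3. Of the 1475 members with reads, 379 (25.7%) drew over 80% of them from a single primer pair, against 16.4% of the other classified pixels. At Sox2 the shares were 40.4% and 4.72%, and at Oct4 29.6% and 26.7%. Counts under 10 over both libraries of a state occurred in 5 window pairs with members. An example is the Olig1-Olig2 pair of windows starting at 91094613 and 91126613, with 1 primer pair and 2 members. It held 1 and 0 counts in NPCs, 406 and 388 in serum and 88 and 133 in 2i, while its members scored between 48.1 and 58.7 in NPCs.

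The siRNA libraries were not used by the rule. They cover the 52 Sox2 and 30 Klf4 members, in NPCs processed with an in situ protocol. The limit of 26 was reached by 46 (56.1%) and 36 (43.9%) of the 82 members in the YY1 siRNA libraries and by 31 (37.8%) and 42 (51.2%) in the control siRNA libraries. Over all scored pairs of these loci the shares were between 15.3% and 15.7%. In all 4 libraries 14 members (17.1%) reached it, against 1.8% of all pairs, and 16 (19.5%) reached it in none, against 61.2% of all pairs. These 14 lay in 5 of the 11 Sox2 clusters and 3 of the 7 Klf4 clusters. The 82 pixels share reads, so no test is given.

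The peak of the largest Sox2 cluster, of 516 kb, scored 21.0 and 10.5 with YY1 siRNA and 21.1 and 14.2 with control siRNA, and 10 of its 17 pixels reached 26 in none of these libraries, where 61% of all Sox2 pairs did so. All 4 pixels of the 72 kb Klf4 cluster reached it in every library, with a peak of 56.4 and 56.4 with YY1 siRNA and 37.7 and 45.3 with control siRNA. The 136 kb Klf4 cluster, at the CTCF hub, reached it in no pixel and no library, with a peak of 18.2 and 24.2 with YY1 siRNA and 11.6 and 15.3 with control siRNA. The peak of the 328 kb Klf4 cluster scored 51.3 and 71.1 with YY1 siRNA and 18.1 and 36.1 with control siRNA. The counts of its window pair were few, at 22 and 112 with YY1 siRNA and 35 and 47 with control siRNA. They were 0.139 and 0.219 times the trend with YY1 siRNA and 0.157 and 0.201 times with control siRNA. The log2 fold change of this pair was 0.014 (SE 0.97, edgeR adjusted p = 0.998).

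Both YY1 siRNA libraries scored above both control siRNA libraries in 10 of 52 Sox2 members (19.2%, against 20.4% of all Sox2 pairs) and below them in 6 (11.5%, against 20.4%). At Klf4 they were above in 9 of 30 members (30%, against 20.6%) and below in 3 (10%, against 20.3%). These shares rest on few clusters.

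In counts, none of the 23 window pairs with members passed edgeR's test for YY1 siRNA against control siRNA, and none of the 3741 pairs tested did (0%, in either direction). At an unadjusted p below 0.05 there were 374 pairs, 2 of them with members. DESeq2 called 52 of all pairs and 1 with a member. The median log2 fold change was 0.14 over the 23 pairs and 0.060 over all. Relative to the trend, both YY1 siRNA libraries were above both control libraries in 4 of the 23 pairs (23.3% of all pairs were) and below them in 1 (17.7% of all pairs were).

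The 2 members' pairs with an unadjusted p below 0.05 lay at Sox2 and had short separations. Windows starting at 35020880 and 35036880 on chromosome 3 held 10852 and 27403 counts with YY1 siRNA and 8245 and 8678 with control siRNA, or 4.60 and 3.58 times the trend against 2.27 and 2.29. On the log2 scale this pair was higher with YY1 siRNA by 0.84 (SE 0.16, edgeR adjusted p = 0.14), and it is the pair that DESeq2 called (adjusted p = 0.0095). Without YY1 siRNA replicate 2 the value was 1.01 (edgeR adjusted p = 0.036), and with the replicate number as a block 0.83 (edgeR adjusted p = 0.0018). In the other alternatives it did not pass, with an adjusted p of up to 0.57. Windows starting at 34620880 and 34652880 held 2815 and 6501 counts with YY1 siRNA and 2296 and 2111 with control siRNA, a difference of 0.72 on the log2 scale (SE 0.23, edgeR adjusted p = 0.34). The spread between siRNA libraries (common biological coefficient of variation 0.376) was larger than between the untreated ones (0.200), and its part in the missing calls was not tested.

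**Figure D5:**
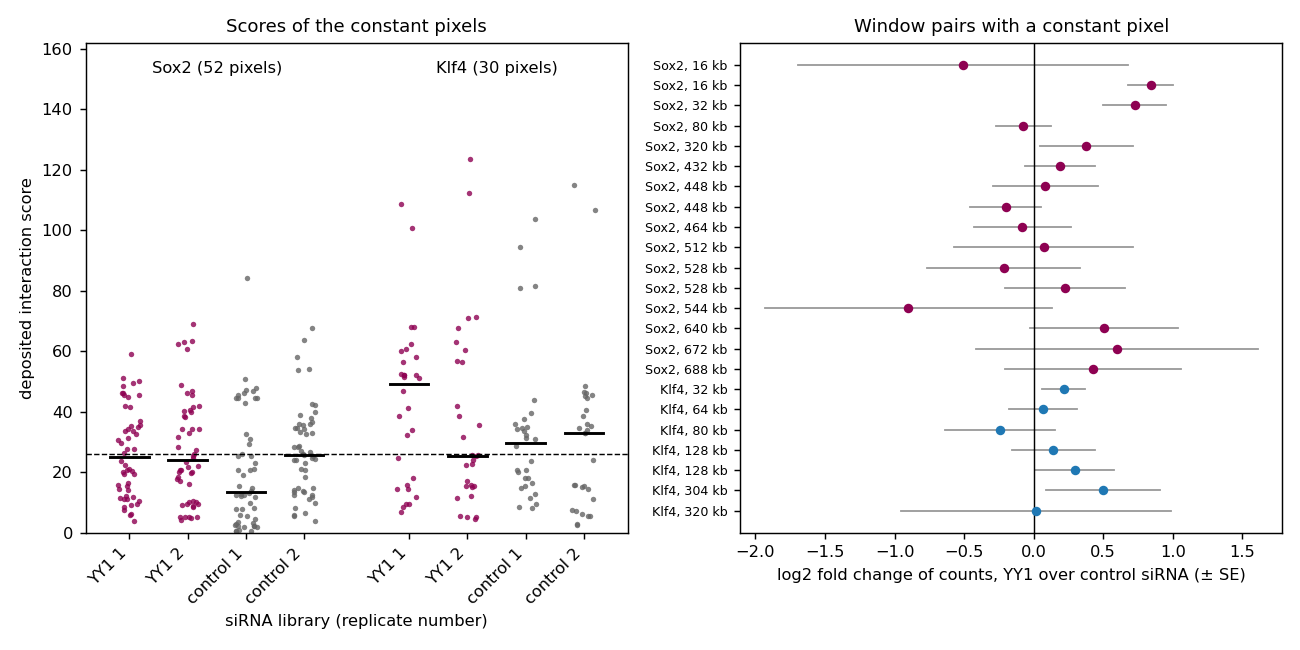
Left, scores (y) of the 82 constant pixels of Sox2 and Klf4 in each siRNA library (x), with black bars at the medians and the limit of 26 as a dashed line; right, log2 fold change of counts (YY1 siRNA over control siRNA) with its SE for the 23 window pairs with a constant pixel, Sox2 above Klf4. In each library many pixels lie under the limit, and no pair passed the test.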

How the data were processed

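The authors' deposited scores and p-values are given per library and pair of 4 kb bins. That the score is −10 × log2(p) was found from the values (largest deviation 0.0618 in the untreated table and 0.0106 in the siRNA table). The making of the scores was not given in the sources used here, and 35 per-sample columns were not used. The deposited 5C tables give raw counts per primer pair. CTCF peaks were called with MACS2, and Bowtie and mm9 are named, per the submitters' processing notes. Each deposited peak carries the authors' fold (a ratio over background) and −log10 q. The labels call the lists downsampled. Input libraries were not analysed here.

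The members and lists were chosen with earlier results of these data known. Members were joined into clusters where both bin indices differed by at most 1. Named clusters were the 3 with most pixels per locus, the 3 longest of at least 3 pixels and 1 hub bin per locus. CTCF regions overlapped a bin by at least 1 bp. Counts within a locus were summed over 16 kb window pairs by fragment midpoint and tested with edgeR 4.0.16 (quasi-likelihood, filterByExpr) in R 4.3.3, with a loess curve (span 0.5) of log(count + 0.5) against distance, drawn per library and locus, as the offset, and Benjamini-Hochberg adjusted p below 0.05. Untreated and siRNA libraries were fitted apart. DESeq2 1.42.0 was an alternative, and Python 3.11.15, pandas 2.3.3 and matplotlib 3.10.9 were used.

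Replicates were not copies of each other (chi-square over its degrees of freedom 20.8 to 98.2). Tested on simulated data of 15601 pairs for NPC against 2i, the steps recovered 40 of 105 pairs shifted by 1 on the log2 scale and 88 of 95 shifted by 2. For the siRNA comparison over 3741 pairs they recovered 8 of 108 and 49 of 92. An annotation or genome of mm9 was not used here, so genes and sequences at the anchors are not given.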

Additional observations from a re-analysis of the deposited data

How the results depend on the processing

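The number of members lay between 1342 and 1578 under score limits of 28 and 24, the authors' own class and leaving out each library, and that of clusters between 137 and 160 under other ways of joining or a limit of 28. These member counts were of classified pixels only, which bounds them at looser settings. At the limit of 26, 681 more scored pairs outside the classified pixels met the rule. The share of members with CTCF of all 3 lists at both anchors was 2.86% with only the peaks of each list above its median q score (all pairs 0.712%) and 24.8% with bins widened by 4 kb (all pairs 10%). The share with no CTCF was 58%, against 74.5% of all pairs, and 11.3%, against 27.9%, under these settings. With 1 value per cluster it was 50.7%, against 58.9% of all pairs. Members kept the higher share of the first and the lower share of the second where all pairs are given. The share reaching 26 in the siRNA libraries was 28% over the control libraries only (all pairs 6.51%). Without 1 library it was 19.5% to 24.4%. Fewer libraries then had to reach the limit, and the share of all pairs was not taken, so this range has no background.

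Window pairs called numbered 39 in NPC against 2i, 66 in NPC against serum and 54 in serum against 2i when a pair needed at least 4 member pixels, a narrower set (24.1%, 40.7% and 33.3% of it, against 17.1%, 29.3% and 21.9% of all pairs). Leaving out a library gave 52 to 77, 67 to 136 and 34 to 111 calls in these comparisons. The lowest were 52 without ES 2i replicate 1 (16%, against 8.26% of all pairs), 67 without ES serum replicate 2 (20.7%, against 14.4%) and 34 without ES serum replicate 2 (10.5%, against 6.3%). In serum against 2i the count was also 37 without ES serum replicate 1 (11.4%, against 9.56%) and 45 without ES 2i replicate 1 (13.8%, against 9.32%), and in NPC against serum 84 without ES serum replicate 1 (25.8%, against 16.7%). The remaining library of such a group is assumed to vary like the others. Of the siRNA pairs, DESeq2 called 1 (1.39% of all pairs), and leaving out a library gave 0 to 1, with 1 without YY1 siRNA replicate 2 (0.451% of all pairs). The labels do not pair replicate numbers, and deviations of same-numbered libraries correlated by 0.021 to 0.085. With the replicate block the calls were 99, 150 and 122 in the untreated comparisons (30.7%, 46.6% and 37.9%, against 21.9%, 33.5% and 26.6% of all pairs) and 1 in the siRNA comparison, where 65 of 3741 pairs (1.74%) were called. The cause of the moves between libraries and tools was not tested. Bins with few or no primer pairs limit the depth.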

Other observations

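The rule was met by 2218 of the 191831 scored bin pairs (1.16%), of which 681 are not in the classified table and so are not members. They lay at Oct4 (301), Nestin (136), Olig1-Olig2 (89), Klf4 (86), Sox2 (38), Nanog (24) and in the gene desert (7), with a median lowest score of 30.9 and a median separation of 100 kb. Of these pairs, 256 touched a member, so they adjoin the constant clusters. At Klf4 such pairs (86) outnumbered the 30 members, and their median separation was 200 kb. At Sox2 their median separation was 34 kb, against 462 kb for the Sox2 members.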
